A study of Mus musculus with 2 samples.

Results

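The miRNAs described here are mmu-miR-678, mmu-miR-692, mmu-miR-704 and mmu-miR-707, mouse entries of the early miRNA catalogue whose names carry no arm. They were chosen by name, as the rows of the deposited alignment table whose annotation begins with one of these names, so their presence in the table is the criterion of choice and not a result. They account for 5 of the 101 rows and 4 of the 98 distinct miRNAs, since miR-692 was paired with 2 query transcripts. The study sequenced small RNA from wild type C57 mouse CD4+ T cells of spleen, activated through CD3 and CD28, as 1 nucleolin immunoprecipitate and 1 input. Genotype, tissue and activation are shared by both samples, so no unactivated or mutant cells stand beside them. The second sample carries an input label, although the design text speaks of an IgG precipitation. The design text starts from naïve cells and names mm10, whereas the submitters' processing notes name mm9.

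The 101 rows hold alignments between reference sequences and no read count, signal or level of either sample. Depth was therefore unknown, nucleolin could not be set against input, the labelled cell type could not be checked against markers, and no miRNA had a level or an error. The rows are not replicates, so their features are given below as descriptions without a test.

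A miRNA is normally cut from a hairpin in a primary transcript, first by Drosha in the nucleus and then by Dicer in the cytoplasm, and 1 strand of the resulting duplex is loaded into an Argonaute protein. The seed near its 5′ end pairs with target mRNAs. An arm suffix in a miRNA name says which side of the hairpin the mature sequence comes from. Nucleolin is an abundant nucleolar RNA-binding protein with roles in ribosomal RNA transcription and processing.

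The mature sequences, from RefSeq on GRCm38.p6, are printed 5′ to 3′ with the seed (bases 2 to 8) in capitals, because the results turn on where else in the mouse transcriptome these letters occur.
miR-678: gUCUCGGUgcaaggacuggagg
miR-692: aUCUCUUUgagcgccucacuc
miR-704: aGACAUGUgcucugcuccuag
miR-707: cAGUCAUGccgcuugccuacg

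miR-678 was 22 nt long and the other 3 were 21 nt. Each seed was shared with 0 other miRNAs among the 1679 mature names in the RefSeq table, so the 4 do not form a seed family. None began with U (0 of 4), whereas 33 of the 86 listed miRNAs with a sequence in that table did (38.4%), as did 687 of the 1679 names (40.9%). GC content was 63.6% in miR-678, 61.9% in miR-707 and 52.4% in both miR-692 and miR-704, against a median of 59.1% over the 86 listed miRNAs.

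Every member row had a 60-nt query, 100% identity and 100% coverage of the mature miRNA. In 101 of 101 rows of the table the query was as long as the first 60 nt of the annotated miRNA gene, counted from its lowest genomic coordinate, or as the whole gene where that is shorter. Length alone does not tell which end of a gene was taken, and the bases were compared for the member rows only. In 5 of 5 member rows the bases at the stated positions, counted from the lowest coordinate, were those of the mature miRNA. A member row thus pairs an annotated miRNA gene with a catalogued mature sequence that the gene contains, and the 100% identity does not come from a read.

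The row of mmu-miR-678 paired it with the transcript of Mir678 (ENSMUST00000102114), aligned over 22 nt from position 8 to position 29 of the query. This covered 36.7% of the query, with a bit score of 44.1 and an E-value of 6.23e-08. The frame of the subject was -1, and 31 nt of query followed the match. Of the 60 rows with frame -1, 24 began later in their query. The row most like it in aligned length, query length and start was that of miR-7084-3p, with a summed difference of 0 nt, followed by miR-3068-3p and miR-5121 at 1 nt each.

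mmu-miR-692 was paired with the transcripts of Gm22133 (ENSMUST00000102082) and Gm22774 (ENSMUST00000102084). Both rows were aligned over 21 nt from position 33 to position 53, both had frame -1, and 7 nt of query followed. These were the latest starts among the 5 member rows, and 7 of the 60 rows with frame -1 began later still. The rows most like them were miR-1199-3p at 2 nt and miR-6418-3p at 4 nt.

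mmu-miR-704 was paired with the transcript of Mir704 (ENSMUST00000102106), from position 15 to position 35 in frame -1, with 25 nt after the match. Of the 60 rows of that frame 17 began later. Its most alike rows were miR-29a-3p at 2 nt, miR-3618-3p at 3 nt and miR-1306-3p at 5 nt. mmu-miR-707 was the member with frame 1. It was paired with the transcript of Mir707 (ENSMUST00000102096) from position 7 to position 27, with 33 nt after the match, and 15 of the 41 rows with frame 1 began later. The rows of miR-6385, miR-7003-5p and miR-7035-5p differed from it by 1 nt each.

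The 4 rows aligned over 21 nt had identical scores, with a bit score of 42.1, an E-value of 2.46e-07 and 35% of the query covered. Among the member rows, equal aligned length thus went with equal scores, whatever the locus. The sign of the frame followed the strand of the miRNA gene, minus for Mir678, Gm22133, Gm22774 and Mir704 and plus for Mir707, because each query was read on the plus strand of the genome. A frame of -1 therefore does not mark antisense RNA here.

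**Figure D1:**
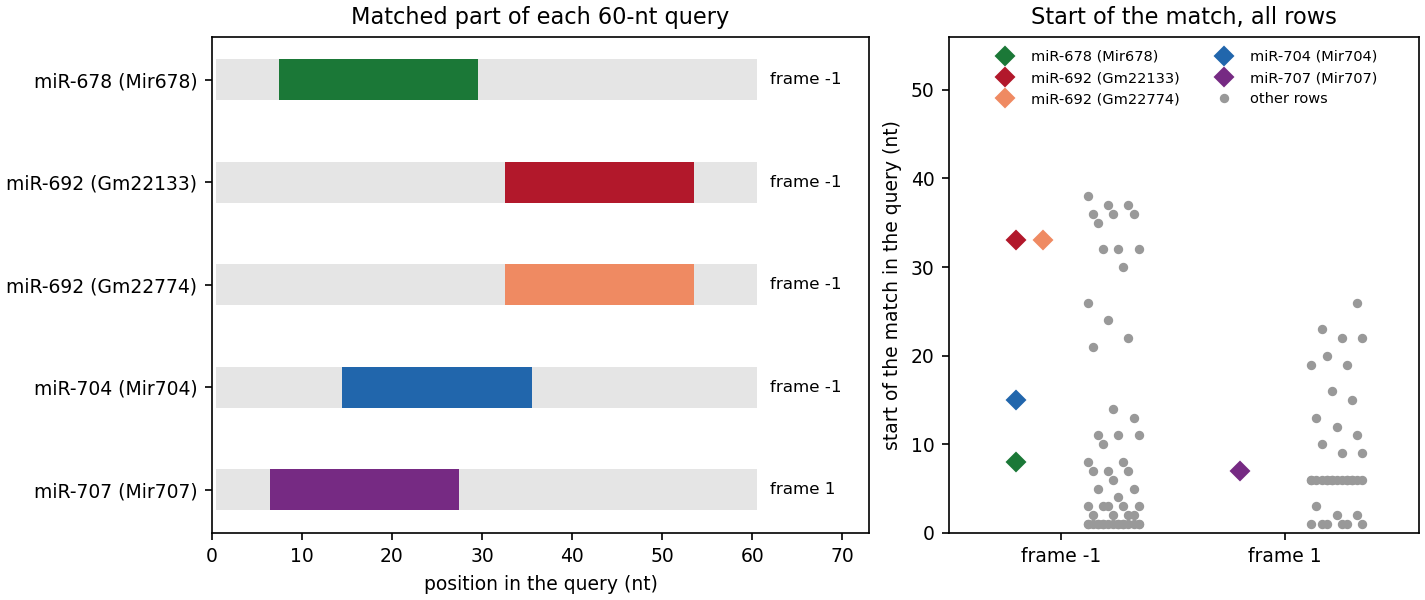
Left, the matched stretch (coloured) of each member's 60-nt query (grey), in nt from the start of the query, with the frame of the subject beside it. Right, the start of the match in the query (nt) for the 5 member rows (diamonds) beside the other 96 rows (grey points), by frame; the 2 miR-692 rows start at 33 nt and the other members between 7 and 15 nt.

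Against the rest of the table the members were ordinary in length. Their aligned lengths ran from 21 to 22 nt with a median of 21 nt, and the other 96 rows ran from 19 to 25 nt with a median of 22 nt. Members made up 4 of the 30 rows aligned over 21 nt and 1 of the 39 aligned over 22 nt. The median start was 15 nt for the 5 member rows, 11 nt for the 14 other rows whose miRNA has no arm in its name and 6 nt for the 82 rows with an arm. These medians pool both frames, although the lowest coordinate is the 3′ end of a minus-strand gene and the 5′ end of a plus-strand gene. In frame -1 alone the medians were 24 nt in 4 member rows, 11 nt in 9 other rows with no arm and 3 nt in 47 rows with an arm. Frame -1 was held by 4 of 5 member rows (80.0%) and by 56 of the other 96 rows (58.3%). Rows of the well-conserved miR-29a, miR-326, miR-425, miR-212 and miR-7a-1 had aligned lengths of 22 to 24 nt and starts of 13 to 22 nt. Query length separated nothing, since 94 of the 101 queries were 60 nt long.

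The place of each locus in its host gene differed from member to member. Positions follow GENCODE M21 on GRCm38, counted from 1. Mir678 lies at chr10:76207326-76207409 on the minus strand, with the mature miRNA at chr10:76207333-76207354. It lies within Prmt2, which encodes a protein arginine methyltransferase (chr10:76207222-76237865, minus strand). All 84 nt of Mir678 lay in the last exon of Prmt2 in each of the 4 transcripts that reach the locus, which is exon 11 of 11 in Prmt2-201, Prmt2-202 and Prmt2-203 and exon 12 of 12 in Prmt2-205. The place was the 3′ UTR in all 4. In the 3 protein-coding transcripts the mature sequence began 406 nt after the stop codon, and 101 to 111 nt of mRNA followed it. Spliced Prmt2 mRNA of these transcripts therefore contains the whole of Mir678, including every letter of miR-678.

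Gm22133 lies at chr7:45458089-45458197 on the minus strand, with the mature miR-692 sequence at chr7:45458121-45458141. The host is Ftl1, which encodes the light chain of the iron-storage protein ferritin (chr7:45457944-45459884, minus strand). The mature sequence lay in the last exon of 6 of 6 Ftl1 transcripts. In Ftl1-201 it spanned nt 518 to 538 of a coding part of 549 nt, beginning at the second base of a codon, with 11 coding nt after it. In Ftl1-204 it spanned nt 449 to 469 of 480. It fell in a 3′ UTR in 1 transcript marked for nonsense-mediated decay and in an exon of 3 noncoding transcripts. miR-692 at this locus is thus spelled by the codons near the end of the ferritin light chain reading frame.

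Gm22774 lies at chr17:6131836-6131944 on the minus strand, with the mature sequence at chr17:6131868-6131888. Of its 109 nt, 91 overlapped the single exon of Gm15590, a processed pseudogene (chr17:6131854-6132405, minus strand), and the mature sequence ended 14 nt before the end of that exon. On the opposite strand the locus lay in an intron of Tulp4, a tubby-like protein gene, in 4 transcripts. A processed pseudogene is a copy of a spliced mRNA inserted back into the genome. The listed Gm22774 locus was therefore annotated in a pseudogene, for which the annotation gives no coding part.

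Mir704 lies at chr6:47803576-47803652 on the minus strand, with the mature sequence at chr6:47803590-47803610. The host, Pdia4, encodes a protein disulfide isomerase of the endoplasmic reticulum (chr6:47796141-47813430, minus strand). In Pdia4-201, which has 10 exons, the mature sequence was the last 21 nt of intron 5, an intron of 115 nt, with 0 nt between its last base and the splice acceptor. None of its 21 nt lay in an exon, while the last 14 of the 77 nt of Mir704 lay in exon 6. Splicing of this host transcript removes the mature sequence of miR-704.

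Mir707 lies at chr7:44849699-44849771 on the plus strand, with the mature sequence at chr7:44849705-44849725. It is within Akt1s1 (chr7:44848991-44855421, plus strand), which encodes PRAS40, an Akt substrate that binds the mTORC1 kinase complex. Its place depended on the Akt1s1 transcript. In Akt1s1-203 it was in the 5′ UTR of exon 1 of 5, 76 nt after the transcript start and 210 nt before the coding part. In Akt1s1-210, a retained-intron transcript, it lay in an exon, 361 nt after the transcript start. In the other 4 transcripts over the locus it lay in intron 1, beginning 15 nt after the intron start in Akt1s1-209 and 356 nt after it in the remaining 3.

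**Figure D2:**
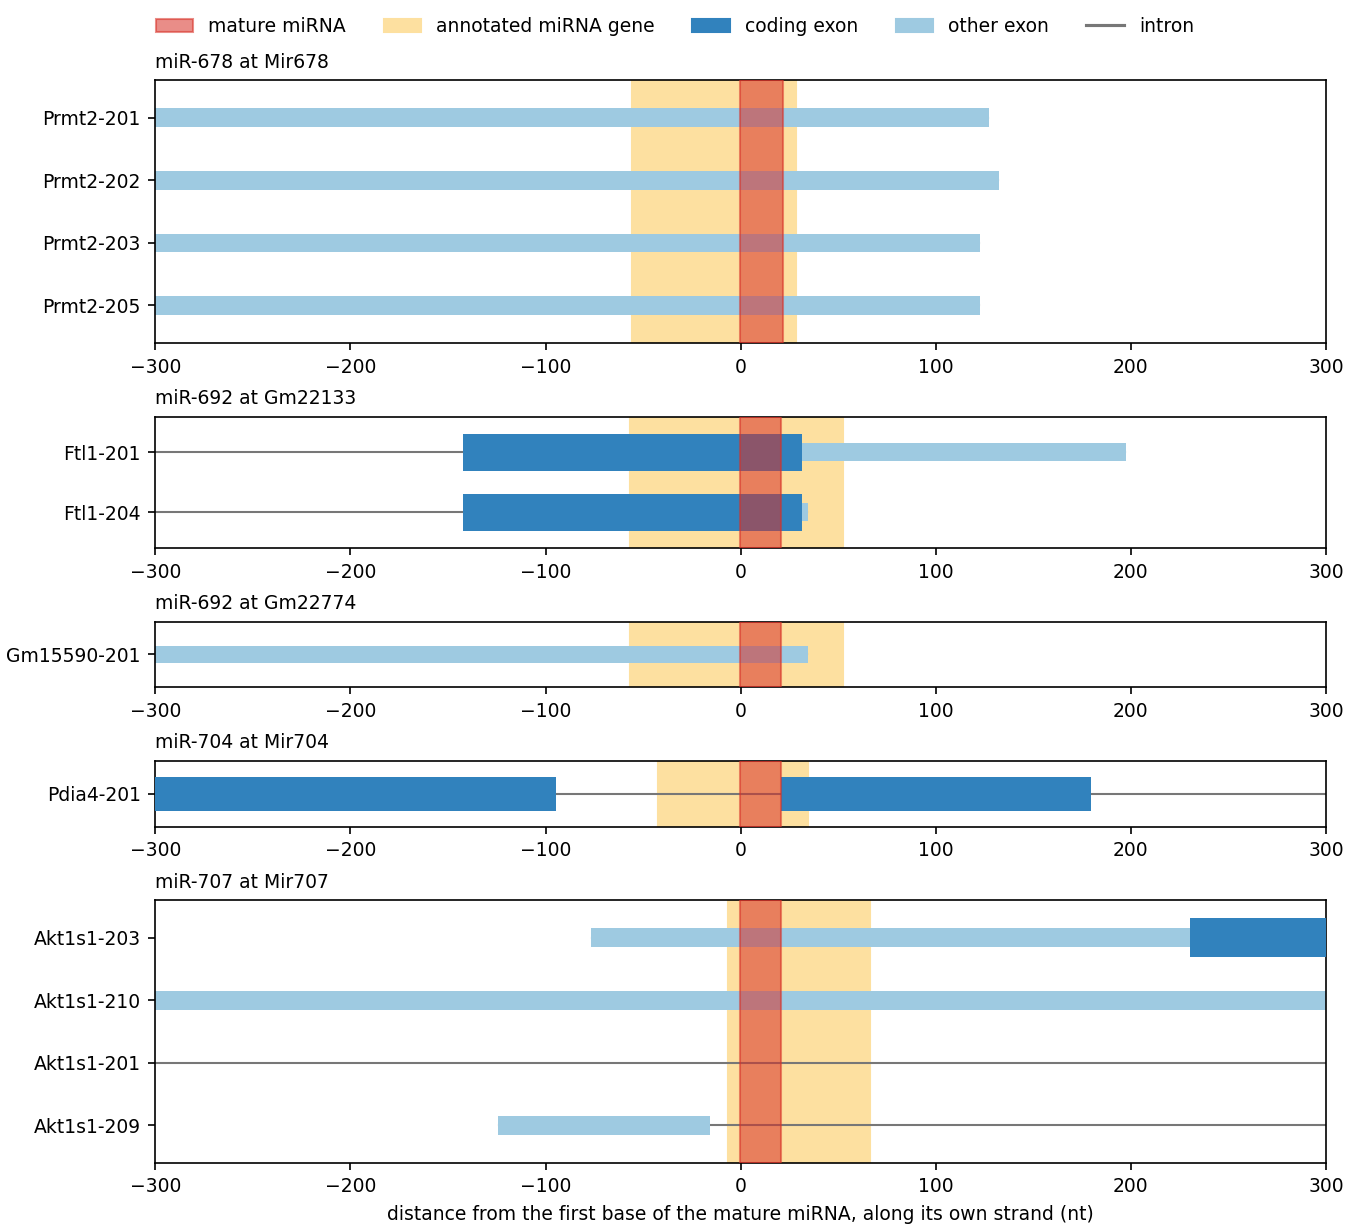
Annotated transcripts around each member locus, drawn to scale in nt from the first base of the mature miRNA along its own strand, with the mature sequence in red, the annotated miRNA gene in yellow, coding exons in dark blue, other exons in light blue and introns as lines. For Ftl1 the 2 protein-coding transcripts of 6 are drawn, and for Akt1s1 4 of the 6 over the locus. The mature sequence lies in an exon at Mir678, Gm22133 and Gm22774, abuts the exon at Mir704, and is exonic or intronic at Mir707 by transcript.

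Counted by the larger part of the miRNA gene, 4 of 5 member loci (80.0%) lay in an exon of a gene on the same strand, with pseudogenes counted as genes. For every set counted here the exons of any annotated transcript were enough, retained-intron transcripts included. Mir707 was counted as exonic in this way, although its mature sequence lay in an intron in 4 of the 6 Akt1s1 transcripts over it. Placement in an exon by this rule held for 42 of all 101 listed loci (41.6%). It held for 133 of 947 miRNA genes that are not in the table although their first 60 nt hold at least 19 nt of a RefSeq mature miRNA (14.0%). The listed loci were not held to that rule, and some of them, such as Mir1893 and Mir1668, do not meet it. Over all 1036 genes that meet it, listed or not, the count was 173 (16.7%). With pseudogenes left out, a choice made after seeing the data, the member count was 3 of 5 and that of all listed loci 40 of 101. With RefSeq in place of GENCODE it was 3 of 5, against 28 of 101. The lack of an arm in the name went with exonic placement beyond the members, since the mature sequence lay wholly in an exon in 10 of the 14 other rows with no arm, against 28 of the 82 rows with an arm. The members were picked by name from a list of 101 with these features already known, and the difference was not tested.

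The mature sequence ended on the last base of an intron in 1 of 5 member rows, that of miR-704, and in 16 of the other 96 rows, of which 15 had an arm in the name and 1 was miR-1668. Of the 5 member genes, 0 filled a whole intron, whereas 7 of the 101 listed genes did. A hairpin made by splicing alone, called a mirtron, has both of its ends at splice sites.

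The stretch below is the whole of Mir704 as annotated, shown for its junction with the exon. Capitals mark the mature sequence, which ends on the AG of the splice acceptor, and the 14 lower-case bases after it belong to exon 6 (chr6:47803576-47803652, minus strand, GRCm38).
Mir704: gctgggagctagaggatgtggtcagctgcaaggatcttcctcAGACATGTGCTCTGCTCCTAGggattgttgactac

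A search for the mature sequences in the whole assembly and in the spliced GENCODE transcripts gave the other places from which the same letters could be read. The transcripts searched included retained-intron transcripts and processed pseudogenes, so a spliced transcript here means any annotated transcript as given. miR-678 occurred 1 time in the genome, and in 4 spliced transcripts outside miRNA genes, all of Prmt2. miR-707 occurred 1 time in the genome and in 2 spliced transcripts, both of Akt1s1, 1 of them protein-coding and 1 a retained-intron transcript. miR-704 occurred 1 time in the genome and in 0 spliced transcripts, and the count stayed at 0 with up to 1 mismatch. A read of the full miR-678 or miR-707 sequence could not be told apart from a fragment of Prmt2 or Akt1s1 mRNA by its letters, whereas a read of the full miR-704 sequence matched unspliced Pdia4 RNA or Mir704 and no mature mRNA in the annotation.

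miR-692 was the member with many copies. Its 21 letters occurred 9 times on the chromosomes and 1 more time on an alternate sequence. They also occurred in 12 spliced transcripts of 7 genes, namely Ftl1, Ftl1-ps1, Ftl1-ps2, Ftl2-ps, Gm12164, Gm15590 and Gm5278. The 6 Ftl1 transcripts made up 6 of these 12. By type 3 of the 12 were protein-coding, 2 in Ftl1 and 1 in Ftl1-ps1, and 2 Ftl1 transcripts retained an intron. The genes other than Ftl1 and Ftl1-ps1 were processed pseudogenes. For comparison, 81 of the 86 listed miRNAs with a sequence in the RefSeq table had 1 copy on the chromosomes (94.2%), and 2 of the 86, miR-692 among them, had at least 9. Over all 1679 RefSeq names, 18 had at least 9.

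Occurrence in a spliced transcript was found for 3 of 4 members, for 37 of the 82 other listed miRNAs searched (45.1%) and for 309 of 1593 RefSeq miRNAs that are not listed (19.4%). The table as a whole thus held many miRNAs whose letters also occur in annotated transcripts, and the members were not alone in this. Retained-intron transcripts and pseudogenes counted in all these shares, so they are not shares of miRNAs found in spliced mRNA. No read of either sample is in the table, so the part of mRNA fragments in any signal of these miRNAs was not tested.

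All 9 chromosomal copies of miR-692 were annotated by GENCODE as miRNA genes. RefSeq placed miR-692 at 3 of them, Mir692-1 on chromosome 17, Mir692-2 on chromosome 4 and Mir692-3 on chromosome 13. Neither listed gene was among these 3. Of the 9 copies 5 lay in exons of processed pseudogenes, 2 in exons of genes typed as protein-coding (Ftl1 and Ftl1-ps1) and 2, Mir692-1 and Gm22750, in no exon on the same strand.

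The position of the mature sequence in the searched part differed by strand. In Mir692-2, Mir692-3 and Gm22751, which are on the plus strand, the mature sequence ran past the first 60 nt from the lowest coordinate. An alignment over the full miRNA was therefore not possible there. The 6 minus-strand copies all had the mature sequence within the searched part. Of these 6, 2 were listed (Gm22133 and Gm22774) and 4 were not (Gm26445, Gm22752, Gm22750 and Mir692-1).

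The listed copies are printed from the first base of the miRNA gene to the end of the Ftl1 stop codon, or the base in its place, to show how alike they are. The capitals mark miR-692, on the minus strand of GRCm38, at chr7:45458107-45458197 for Gm22133 and chr17:6131854-6131944 for Gm22774.
Gm22133: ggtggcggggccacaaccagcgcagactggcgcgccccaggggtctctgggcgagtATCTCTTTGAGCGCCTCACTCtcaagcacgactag
Gm22774: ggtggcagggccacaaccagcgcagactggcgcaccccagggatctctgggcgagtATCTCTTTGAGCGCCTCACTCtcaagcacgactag

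Over the 109 nt of the miRNA gene Gm22774 differed from the Ftl1 copy at 4 places, G7A, G34A, G43A and A103G, with the Ftl1 base first and positions counted from 1 at the 5′ end of the gene. The searched part of Gm22774 was positions 50 to 109, where 1 of these differences fell, and the unbroken identity around the mature sequence was 59 nt. Over the same positions the 4 minus-strand copies that were not listed had 2 differences in Gm26445, 4 in Gm22752, 5 in Gm22750 and 10 in Mir692-1. Their unbroken identity to the Ftl1 copy ran from 33 nt in Mir692-1 to 55 nt in Gm26445. Differences were counted base by base in a fixed window around the mature sequence, without gaps. An inserted or lost base can thus count as a run of differences. Gm22133 is itself the Ftl1 copy, so its 0 differences are fixed, and the comparison is between 1 difference in Gm22774 and 2 in the next minus-strand copy, Gm26445. Plus-strand Mir692-2 and Mir692-3, which were not listed, were as near as Gm22774 over positions 50 to 109, with 1 difference each, and nearer over the whole gene, with 3 differences each against 4. Since reads were not available and the rule that chose transcripts for the table is not given in the sources used here, whether sequence likeness bore on the listing was not tested.

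**Figure D3:**
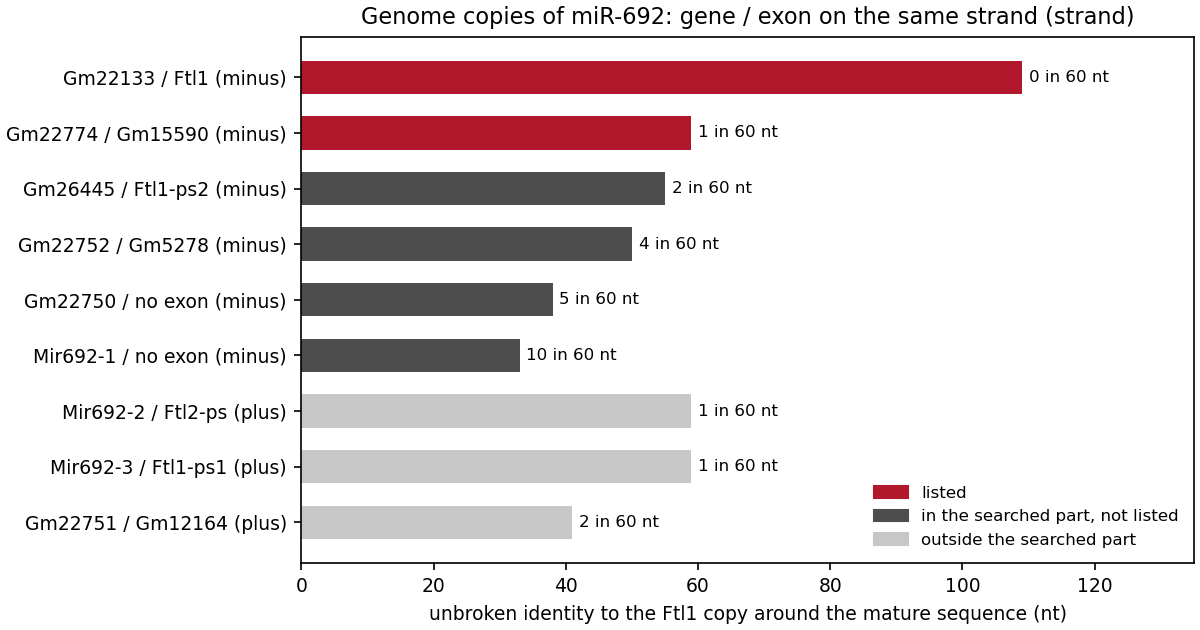
Length in nt of the unbroken identity to the Ftl1 copy around the mature sequence, for the 9 chromosomal copies of miR-692, each named by its miRNA gene, the gene whose exon holds it on the same strand, and its strand. Numbers beside the bars count differences from the Ftl1 copy over positions 50 to 109 of the Ftl1 copy of the gene, for every copy; the listed copies (red) have 0, by definition for Gm22133, and 1, the other searchable copies (dark grey) 2 to 10 and the plus-strand copies (light grey) 1 or 2.

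Hairpin shape was predicted for each miRNA gene at 37 °C. The minimum free energy is the predicted stability of the fold, more negative meaning more stable, and is given per nt because the genes differ in length. It was -33.2 kcal/mol over 84 nt for Mir678 (-0.395 per nt), -37.9 over 109 nt for Gm22133 (-0.348 per nt) and -37.5 over 109 nt for Gm22774 (-0.344 per nt). It was -27.1 kcal/mol over 77 nt for Mir704 (-0.352 per nt) and -29.7 over 73 nt for Mir707 (-0.407 per nt). Mir707 and Mir678 were near the middle of the list, with 45.5% and 50.5% of the 101 listed genes more stable per nt. Mir704, Gm22133 and Gm22774 were on its less stable side, with 68.3%, 72.3% and 74.3% more stable. With 20 nt of genome added on each side these shares were 60.4% for Mir704, 38.6% for Gm22133 and 54.5% for Gm22774, and 62.4% for Mir707 and 51.5% for Mir678, so the side changed for Gm22133 and Mir707. The median was -0.352 per nt over the 5 members, -0.395 over all 101 listed genes and -0.397 over the 947 searchable genes that are not listed. With the added 20 nt these medians were -0.352, -0.356 and -0.348 in the same order, so the members no longer had the weakest median. All 5 members lay within the range of the other listed genes.

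**Figure D4:**
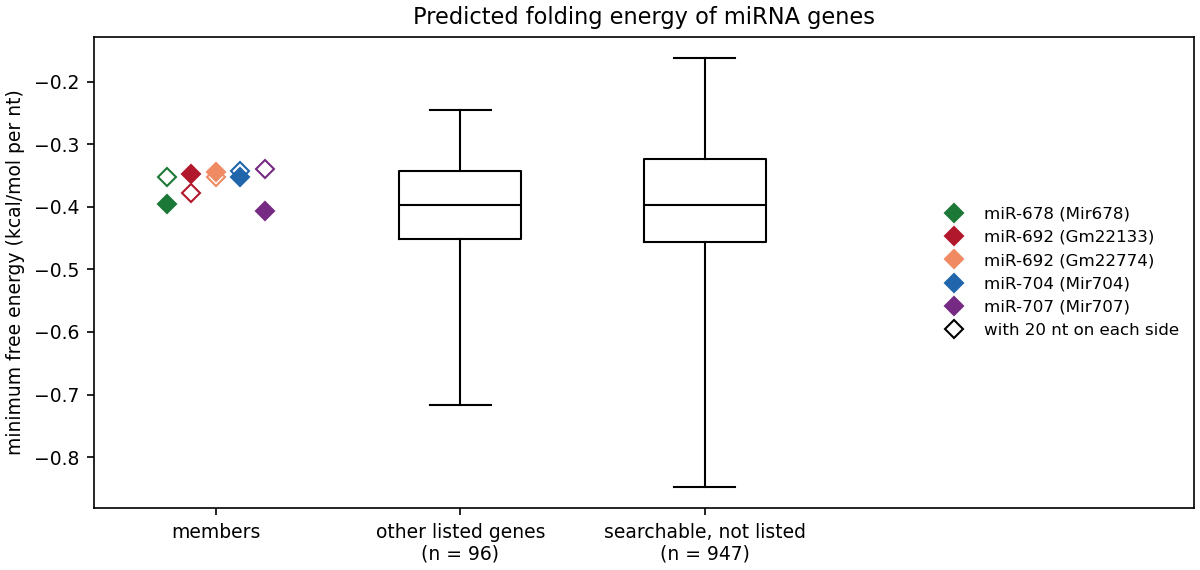
Predicted minimum free energy in kcal/mol per nt of each member gene as annotated (filled diamonds) and with 20 nt of genome on each side (open diamonds), beside box plots of the other 96 listed genes and of 947 searchable genes that are not listed, both as annotated. Boxes span the quartiles with the median as a line, and whiskers reach the lowest and highest value; members lie between -0.407 and -0.340.

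In the genes as annotated, pairing of the mature sequence set miR-692 apart from the other members. A mature miRNA in a simple hairpin pairs with the opposite arm, on 1 side of itself only. In Mir678 17 of 22 mature nt were paired, in Mir704 19 of 21 and in Mir707 18 of 21, each with 1 side only and in a fold with 1 hairpin loop. In Gm22133 16 of 21 were paired, 6 with upstream and 10 with downstream bases, in a fold with 3 hairpin loops. In Gm22774 13 of 21 were paired, 3 upstream and 10 downstream, with 4 loops. Across the table the mature sequence paired with 1 side only in 98 of 101 genes, and the 3 exceptions were Gm22133, Gm22774 and Mir1892. A fold with 1 hairpin loop was predicted for 3 of the 5 members and for 91 of all 101 listed genes, as annotated.

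With 20 nt of genome added on each side the shape changed for several members. Pairing with 1 side only remained in Mir678 (17 nt) and Mir704 (19 nt), and it was lost in Mir707, where 3 nt paired upstream and 14 downstream. In Gm22133 the paired mature nt dropped to 8, of which 4 paired within the mature sequence itself. With these flanks 2 of the 5 members and 87 of all 101 listed genes had pairing on 1 side only. A fold with 1 hairpin loop was left in 1 of 5 members, Mir678, and in 46 of all 101, and the loops numbered 3 in Mir704, Mir707 and Gm22133 and 5 in Gm22774. A predicted fold is a property of the reference letters and was not measured in these cells.

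Neighbours by catalogue number gave a further comparison. GENCODE names 48 miRNA genes by a number from 670 to 720, of which 28 hold at least 19 nt of a RefSeq mature sequence in the searched part. Of these 28, 5 were listed (Mir671, Mir678, Mir700, Mir704 and Mir707) and 23 were not. Among the 5 listed, 4 lay in an exon on the same strand, all but Mir704, and among the 23 not listed 3 did. Over all 48 genes, searchable or not, 13 did. Mir678, Mir704 and Mir707 are member genes, so the comparison is not separate from the member counts above. Loci named by a Gm number added both miR-692 rows and miR-682, so the table held 8 rows and 7 miRNAs of this number range, and 5 of the 7 miRNAs had no arm in the name. miR-682, which was not chosen, resembled miR-692 in having several copies in the genome (7), an exonic locus and a predicted energy of -0.316 per nt, although its match began at position 3 of the query. miR-671-5p and miR-700-3p had 1 copy each and the most stable folds among the 8 listed rows of this range, at -0.561 and -0.420 per nt.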

How the data were processed

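The series has 1 nucleolin immunoprecipitate and 1 input of mouse CD4+ T cells, and 1 table of BLAST alignments deposited for the series as a whole. Per the file headers, the deposited table gives identity in percent and both a raw score and a bit score from the alignment program. Coverage was computed from the deposited lengths and positions. Lengths, positions and frames are in nt or sign, and 0 columns of per-sample values were left out. The program settings, the read aligner and the rule that chose transcripts are not given here by any source used. The genome build was mm9, per the submitters' processing notes. Rows were tied by transcript identifier to GENCODE M21 on GRCm38, and mature sequences came from RefSeq on GRCm38.p6, with 86 of the 98 listed miRNAs matched by name. A gene was called searchable when its first 60 nt from the lowest coordinate held at least 19 nt of a RefSeq mature sequence on the strand of the gene. Exact searches covered all sequences of the assembly, on both strands, and all spliced transcripts in sense, with retained-intron transcripts and pseudogenes included. Folding used RNAfold 2.7.2; other steps used Python 3.11.15, numpy 2.4.6 and matplotlib 3.10.9. The exact search, the search with up to 1 mismatch and the exon overlap were tested on simulated data and each recovered 200 of 200 planted cases. Named were all rows of the members, their miRNA genes, every gene containing such a locus, every gene with a sense match where at most 10 held one, all genome copies, up to 3 most alike rows of the same frame, and listed miRNAs numbered 670 to 720. Other names, such as miR-1668 and Mir1892, were singled out after their values were seen. The members and lists were chosen with earlier results of these data known. With 1 sample per group and no counts, no test was made.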

Additional observations from a re-analysis of the deposited data

How the results depend on the processing

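Of 29 alternative values, 20 were labelled the same as those reported and 9 moved. The labels do not follow the size of the change. Exon counts of 3 and 5 against 4 were labelled the same. The energy of Gm22774, -0.352 per nt with flanks against -0.344, was labelled moved. Requiring an aligned length of at least 22 nt left 1 of the 5 member rows, that of miR-678. Allowing up to 1 mismatch raised the genome copies of miR-692 to 17, against 10 without mismatch over all sequences, and left the other 3 miRNAs at 1. Counting protein-coding transcripts only gave 3 for miR-692, against 12, and 1 for miR-707, against 2. With 20 nt on each side the folding energy per nt was -0.352 for Mir678, -0.3785 for Gm22133, -0.352 for Gm22774, -0.343 for Mir704 and -0.340 for Mir707, so the order of the 5 changed. The member loci in an exon numbered 4 by the larger part, 5 with any overlap, 3 with the whole gene, 4 on either strand, 3 in RefSeq and 3 without pseudogenes, the last chosen after seeing the data. No paired analysis was possible because values per sample are lacking and either group is a single sample. The ratio of nucleolin to input was not run for the same reason, and depth is unknown.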
